A study of Mus musculus with 12 samples.

Results

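The enzymes described here write or erase chemical marks on histones and DNA. They were chosen by name alone, as the genes whose symbol begins with Kmt, Setd, Ezh, Kat or Dnmt (writers) or with Kdm, Hdac, Sirt or Tet (erasers) followed by a digit. Kdm5c, Kdm5d and Kdm6a were left out. This gave 66 of the 16503 genes listed for fresh muscle stem cells (MuSCs) and cultured myoblasts, and 65 of the 16169 genes listed for the Nedd4L genotypes. The 66 genes are 30 writers and 36 erasers, and the gene absent from the second list is Hdac1-ps, a processed pseudogene of Hdac1.

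The 12 mouse RNA-seq libraries were made with a SMART-Seq kit from 1000 cells each, in 4 groups of 3. Nedd4L-cKO MuSCs (replicates 01 to 03) came from Nedd4L fl/fl Pax7 cre/+ mice on a C57BL/6 background, and Nedd4L WT MuSCs (replicates 01 to 03) came from control mice whose alleles are given only as WT, all of them males aged 5 to 6 weeks. In the second cohort, freshly isolated WT MuSCs and WT myoblasts came from the same mice (replicates 04 to 06). Their age was given only as a range that covers every experiment of the study, on mice of both sexes, and the methods state that cultured myoblasts were taken from males. Fresh MuSCs were sorted straight into lysis buffer, and myoblasts were grown for 3 days in medium with serum and bFGF, detached and counted without a second sort. Cre was driven from Pax7, so the deletion is carried by Pax7-expressing cells and their descendants. It removes exon 15, which encodes part of the catalytic domain, and the rest of the Nedd4l transcript is still made.

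As background, histone acetyltransferases (Kat) add acetyl groups to lysines and histone deacetylases (Hdac and the NAD-dependent sirtuins) remove them, which in general opens or closes chromatin to transcription. Lysine methyltransferases (Kmt, Setd, Ezh) and demethylases (Kdm) act in the same way on methyl groups, whose effect depends on the lysine: methylated H3K4 marks active promoters and enhancers, methylated H3K27 is the repressive mark of Polycomb complexes, and methylated H4K20 takes part in chromatin compaction and genome stability. Dnmt enzymes methylate cytosine and Tet enzymes oxidise the methyl group, the first step of its removal. In MuSCs such enzymes are known for their part in holding quiescence and in the switch to myogenic gene expression. Not every product of these gene families acts on histones: Setd3 methylates actin, Setd6 also methylates an NF-κB subunit, Sirt3, Sirt4 and Sirt5 are mitochondrial, and Hdac10 deacetylates polyamines.

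Levels are given in RPM, here the authors' normalised read count scaled to the mean library total of its table, and fold changes are on the log2(RPM + 1) scale, which understates changes of low genes. A gene is called where the adjusted p of limma's moderated test across all genes was at most 0.05. Library totals of normalised counts lay within 92.4% to 116.2% of the mean of their table, and read depth is unknown, so no counting interval is given. In bulk samples, fewer cells expressing a gene and less RNA per cell cannot be told apart.

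All 66 genes passed the filter on low values and were tested. They are counted as enzymes below, Hdac1-ps included, although it is a pseudogene. In fresh WT MuSCs of the second cohort the order of levels per kilobase of transcript was headed by erasers. Sirt2, a mainly cytoplasmic deacetylase of tubulin and histones, stood at 199 RPM per kb and Hdac2 at 153, followed by Hdac1 at 74.3 and then Hdac3. Sirt2 was above Hdac2 in each of the 3 libraries, at 236, 192 and 169 RPM per kb against 178, 145 and 136, and the SDs were 33.7 and 22.6 RPM per kb (n = 3). The highest writer was Kat7, the acetyltransferase of origin-associated complexes, at 28.5 RPM per kb, and the lowest genes were Hdac7 at 0.21 and Hdac9 at 0.0152 RPM per kb. In Nedd4L WT MuSCs the same 4 erasers led, with Sirt2 at 124, Hdac2 at 115, Hdac1 at 67.6 and Hdac3 at 40.8 RPM per kb. There Sirt2 was not above Hdac2 in every library, at 142, 110 and 118 RPM per kb against 124, 115 and 104. Across the 65 genes in both tables, levels per kb in the WT MuSCs of the 2 cohorts had a Spearman correlation of 0.924, and 57 lay within 2-fold of each other. The tables were normalised separately, so these levels are set side by side as a description, with no test.

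The first comparison asked how the transcriptome of MuSCs differs from that of myoblasts grown from the same mice. Of the 66 enzymes 28 were called, beside 42.8% of all 15345 genes tested, so that the share of 42.4% was close to the background. The directions were less even: 20 enzymes fell in myoblasts, where 20.6% of all genes were called lower, and 8 rose, where 22.2% of all genes were called higher. Both sides contributed, with 10 writers and 10 erasers lower and 3 writers and 5 erasers higher. These counts include Dnmt3c, which passed the filter through the MuSC libraries alone and was called lower. They also include Hdac9, which passed it through the myoblast libraries alone and was called higher. The median log2 fold change was -0.0045 over the writers, -0.38 over the erasers and 0.039 over all genes tested. With a change of at least 1 on the log2 scale as a further condition, 20 enzymes were called, beside 31.8% of all genes, and the groups of 35 enzymes did not overlap, beside 55.2% of all genes.

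**Figure D1:**
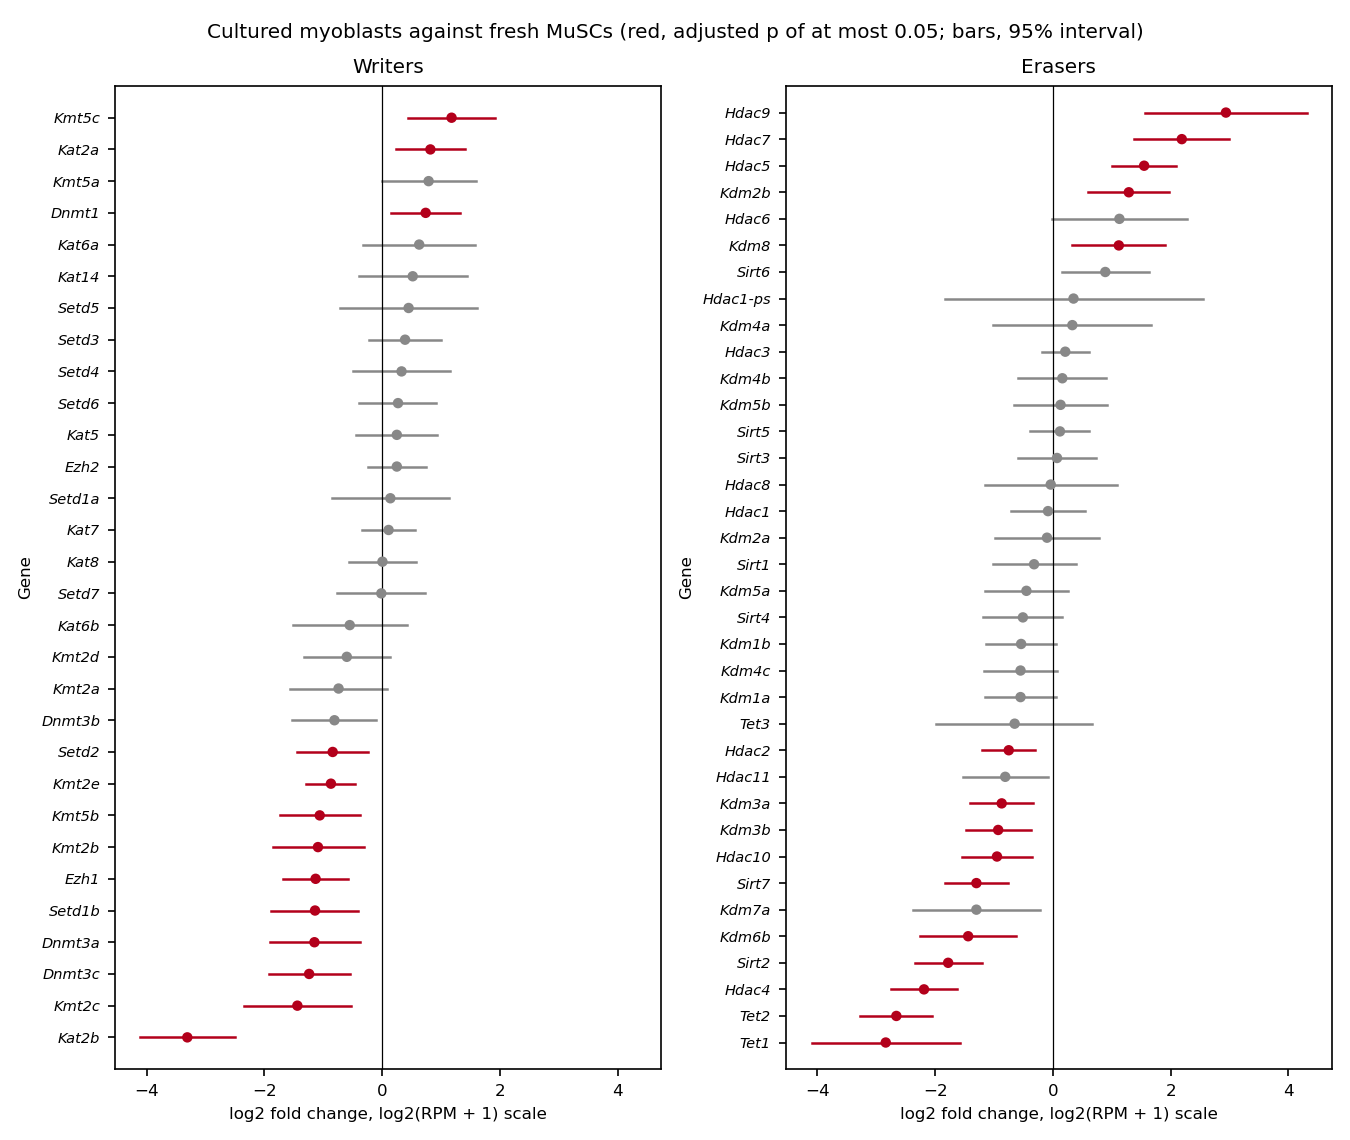
Log2 fold change of each enzyme in WT_myoblast minus WT_fresh_MuSC libraries, on the log2(RPM + 1) scale (x axis), with writers and erasers in separate panels and genes on the y axis. Points are estimates from 3 libraries a group, bars are 95% intervals, and red marks an adjusted p of at most 0.05. Kat2b at -3.31 and Tet1 at -2.84 are the lowest. Hdac9 at 2.94 is the highest, and it passed the filter through the myoblast libraries alone.

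The cells of the 2 groups differed in more than these enzymes. The summed level of 9 muscle stem cell markers was 3570 to 4610 RPM in fresh MuSCs and 517 to 661 in myoblasts, with 7 of 9 called lower. All 5 markers of differentiating myoblasts were called higher, with sums of 695 to 903 RPM in MuSCs and 5630 to 12700 in myoblasts, and 4 of 6 markers of mature myofibers were called higher. Of 15 proliferation genes 5 were called higher and none lower, beside 22.2% and 20.6% of all genes. Their sums overlapped, at 1010 to 1910 and 1680 to 4580 RPM. Markers of endothelial, immune and Schwann cells summed to at most 44.3 RPM in any of these libraries, tenocyte markers to 8.55 to 9.74 RPM in MuSCs and 20.7 to 105 in myoblasts, and mural markers to 1090 to 1400 and 1630 to 2410 RPM. Nearly all of the mural sum was Acta2 (1380, 1340 and 1080 RPM against 2400, 1610 and 1670), which was not called (adjusted p = 0.0517), whereas Kcnj8, the only mural marker called, fell from 2.37, 3.62 and 3.5 RPM to 0.0802, 0.0422 and 0.0427 (-1.97 ± 0.23, adjusted p = 0.000244). The fibro-adipogenic sum went from 420 to 530 RPM in MuSCs to 2.7 to 4.4 in myoblasts, and nearly all of the MuSC sum was Dpt (411 to 507 RPM). Of 4 fibro-adipogenic markers tested 2 were called lower, Dpt and Dcn, and 1 higher, Ly6a. Dcn went from 5.75, 46.1 and 19.8 RPM to 0.0144, 0.702 and 0.217 (-3.87 ± 0.63, adjusted p = 0.00142). Ly6a was at 0, 0.428 and 0.0271 RPM against 1.45, 1.86 and 2.5 (1.35 ± 0.25, adjusted p = 0.00239). Pdgfra was at 2.39 RPM or less in MuSCs and was not called. The part of these differences in the changes of the enzymes was not tested.

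Among the writers, the largest change was that of Kat2b (PCAF), an acetyltransferase of histone H3 and of transcription factors including MyoD, which lies at chr17:53873889-53979749 of GRCm39. MuSC libraries held 67.2, 35.9 and 32.2 RPM of it, and myoblast libraries 2.59, 3.28 and 4.57 RPM. The groups stood far apart, and the log2 fold change was -3.31 ± 0.36 (SE, adjusted p = 0.000153). Its paralog Kat2a (GCN5), which occupies the same place in SAGA-type complexes, went the other way, from 38.9, 34.3 and 25.3 RPM to 64.1, 68.0 and 44.7 RPM (0.82 ± 0.26, adjusted p = 0.0308). That call was lost without MuSC library 05 (adjusted p = 0.0665) or 06 (0.105) and without myoblast library 04 (0.0533) or 05 (0.116). The other 6 Kat genes were not called. They include Kat5 (Tip60), Kat7 and Kat8 (MOF), whose log2 fold changes lay between 0.0054 and 0.25. Kat6a was called only without myoblast library 04, where its log2 fold change was 1.12 (adjusted p = 0.0101) against 0.63 with all libraries.

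Of the 7 H3K4 methyltransferases of the Kmt2 and Setd1 type, 4 fell and none rose. Kmt2c, which with Kmt2d places the enhancer mark H3K4me1, was at 76.6, 47.5 and 69.7 RPM in MuSCs and at 11.5, 36.0 and 27.9 in myoblasts (-1.44 ± 0.40, adjusted p = 0.0182). The promoter enzyme Setd1b was at 28.9, 16.9 and 18.1 RPM and then at 6.68, 9.17 and 11.2 (-1.14 ± 0.33, adjusted p = 0.0202). Both pairs of groups were separate, but neither call held in every fit with 1 library left out. The call of Kmt2c was lost without MuSC library 04 (adjusted p = 0.0582) or 06 (0.0603), and that of Setd1b without MuSC library 04 (0.0609) or myoblast library 05 (0.0542). Fewer genes were called in general in these fits: 37.8% of all genes without MuSC library 04, 34.8% without 06 and 31.7% without myoblast library 05, against 42.8%. Kmt2b, which methylates H3K4 at promoters, went from 29.7, 14.2 and 16.3 RPM to 7.03, 8.77 and 9.65 (-1.09 ± 0.34, adjusted p = 0.0307). This was the least stable of them: the animal as a block gave an adjusted p of 0.0569, and leaving out MuSC library 04 (0.0842) or 06 (0.0533) or myoblast library 04 (0.0536), 05 (0.0738) or 06 (0.0564) ended the call. Kmt2e, a family member with little methyltransferase activity of its own, fell in all 13 alternative fits, from 175, 142 and 136 RPM to 84.9, 81.2 and 77.9 (-0.87 ± 0.18, adjusted p = 0.00503). Kmt2a (MLL1), which acts at Pax7 target genes in MuSCs, was at 61.1, 36.6 and 37.2 RPM against 14.7, 32.0 and 35.8. Its groups did not overlap, but the change of -0.74 ± 0.37 did not pass the test (adjusted p = 0.133). Kmt2d and Setd1a were not called either.

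Of the catalytic subunits of Polycomb repressive complex 2 (PRC2), Ezh1 fell and Ezh2 was not called. Ezh1, the form found mostly in resting and differentiated cells, was at 75.0, 59.8 and 46.0 RPM in MuSCs and at 24.4, 29.0 and 26.0 in myoblasts, with no overlap. Its log2 fold change was -1.13 ± 0.24 (adjusted p = 0.00563). Ezh2, the form of dividing cells, was at 54.8, 49.6 and 61.7 RPM and then at 74.9, 70.7 and 53.4, with overlapping groups and a 95% interval of -0.24 to 0.74 for the log2 fold change (adjusted p = 0.38).

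Among the H4K20 methyltransferases, 1 fell and 1 rose. Kmt5b (Suv420h1), which places H4K20me2 and me3, was at 53.0, 64.1 and 46.1 RPM in MuSCs and at 16.9, 36.1 and 26.3 in myoblasts (-1.06 ± 0.30, adjusted p = 0.0197, lost without MuSC library 05 at 0.0765). Kmt5c (Suv420h2), which acts on the same lysine mainly at heterochromatin, was at 4.69, 8.24 and 4.59 RPM and then at 16.4, 12.3 and 13.6 (1.18 ± 0.33, adjusted p = 0.018). The groups of both were separate, and the call of Kmt5c was lost without MuSC library 06 (adjusted p = 0.0614) or myoblast library 06 (0.0564). Kmt5a (Set8), which places H4K20me1 in dividing cells, was at 23.4, 12 and 9.74 RPM against 20.8, 31.1 and 24.2. Its groups overlapped through MuSC library 04, and it was called only without that library (1.14, adjusted p = 0.0211, against 0.79 and 0.103 with it). Of Setd2 to Setd7 only Setd2, which trimethylates H3K36, was called. It went from 81.1, 56.5 and 52.9 RPM to 26.0, 38.7 and 40.2 (-0.84 ± 0.26, adjusted p = 0.03). This call was lost with the animal as a block (adjusted p = 0.0671), with each library scaled to its own total (0.0561), and without MuSC library 04 (adjusted p = 0.0922) or 05 (0.0594) or myoblast library 04 (0.0537) or 05 (0.0534). Setd7, an H3K4 monomethyltransferase, was at 24.3, 12.4 and 14.6 RPM against 14.4, 14.3 and 20.8 (95% interval of -0.76 to 0.73). Setd5 was called only without myoblast library 04 (1.05, adjusted p = 0.0321, against 0.45 with all libraries).

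Among the DNA methyltransferases, the de novo enzyme Dnmt3a was at 57.8, 43.7 and 55.4 RPM in MuSCs and at 13.3, 26.4 and 33.8 in myoblasts. The groups were separate, and the log2 fold change was -1.15 ± 0.34 (adjusted p = 0.0234), lost without MuSC library 04 (0.0654) or 06 (0.0714). The maintenance enzyme Dnmt1 was at 28.2, 28.7 and 39.5 RPM and then at 64.8, 59.2 and 40.3, where the lowest myoblast library and the highest MuSC library nearly met. Its change of 0.74 ± 0.26 passed narrowly (adjusted p = 0.0472). It did not pass with the animal as a block (0.0934), with no filter on low values (0.0502), without limma's trend and robust options (0.0567), or without MuSC library 04 (0.113) or 05 (0.133) or myoblast library 04 (0.0947) or 05 (0.146). Dnmt3b was at 5.61, 4.97 and 4.53 RPM against 1.74, 3.22 and 2.48 (-0.81 ± 0.32, adjusted p = 0.0651), and passed without the trend and robust options (0.0269). Dnmt3c, a rodent copy of Dnmt3b known from the male germ line, was near the floor at 2.69, 1.74 and 0.616 RPM against 0.223, 0 and 0.0198 (-1.24 ± 0.30, adjusted p = 0.0105). It passed the filter through the MuSC libraries alone, could not be fitted without any one of these, and shares sequence with Dnmt3b, so its value is uncertain.

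**Figure D2:**
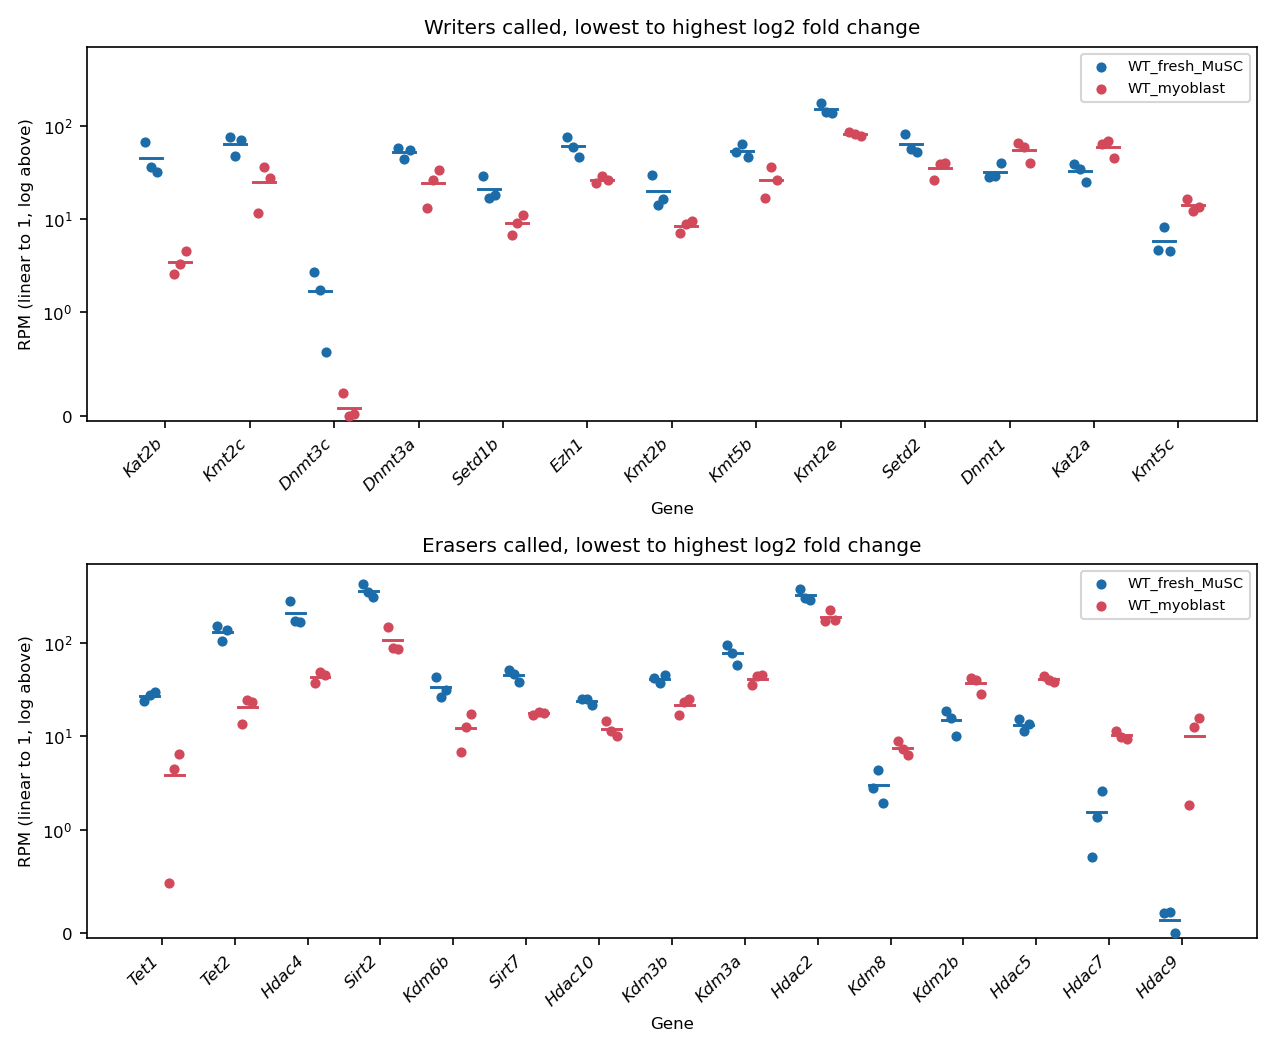
RPM in each library (y axis, linear to 1 and logarithmic above) for the 13 writers and 15 erasers called between WT_fresh_MuSC (blue) and WT_myoblast (red), ordered by log2 fold change on the x axis. Points are libraries and short lines are means of 3. Tet1 in 1 myoblast library (0.481 RPM) and Hdac9 in 1 myoblast library (1.85 RPM) sit well below the other 2 of their group.

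Among the erasers, the Tet dioxygenases held the largest decreases. Tet2, at chr3:133169436-133250900 of GRCm39, was at 152, 106 and 139 RPM in MuSCs and at 13.7, 24.2 and 23.4 in myoblasts (-2.66 ± 0.27, adjusted p = 0.00011). Tet1 was at 23.6, 28.0 and 29.8 RPM and then at 0.481, 4.45 and 6.47 (-2.84 ± 0.55, adjusted p = 0.00355). Both were separate in all libraries and remained called without myoblast library 04, where Tet1 was lowest, at -2.41 for Tet2 and -2.13 for Tet1. Tet3 was at 31.4, 20.7 and 22.7 RPM in MuSCs and at 4.6, 22.8 and 31.0 in myoblasts. Its groups overlapped and its log2 fold change of -0.65 ± 0.58 (adjusted p = 0.393) became 0.11 without myoblast library 04.

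The class IIa deacetylases, signal-responsive corepressors that bind Mef2 factors, moved in both directions. Hdac4, at chr1:91855937-92123421 of GRCm39, fell from 283, 172 and 167 RPM to 37.1, 48.5 and 44.9 (-2.19 ± 0.25, adjusted p = 0.000194). Hdac5 rose from 15.2, 11.4 and 13.4 RPM to 44.1, 40.4 and 38.0 (1.55 ± 0.24, adjusted p = 0.00106), and Hdac7 from 0.736, 1.38 and 2.56 RPM to 11.3, 9.94 and 9.36 (2.19 ± 0.35, adjusted p = 0.00134). The groups of all 3 were far apart relative to their spread. Hdac9, a Mef2 target that restrains Mef2 in turn, was at 0.192, 0.203 and 0 RPM in MuSCs and at 1.85, 12.7 and 15.8 in myoblasts (2.94 ± 0.61, adjusted p = 0.00461). It passed the filter through the myoblast libraries alone and could not be fitted without any one of these.

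With all libraries in the fit, the other Hdac genes changed less than those of class IIa. The class I enzyme Hdac2, a subunit of the Sin3, NuRD and CoREST complexes, was at 378, 307 and 288 RPM in MuSCs and at 170, 228 and 178 in myoblasts (-0.75 ± 0.20, adjusted p = 0.0134), and it was called in all 13 alternative fits. Hdac1, its partner in the same complexes, was at 170, 135 and 151 RPM against 218, 130 and 103, with a 95% interval of -0.71 to 0.54. Hdac3, the enzyme of the NCoR complexes, had an interval of -0.19 to 0.61. Neither of the latter was called, and nor was Hdac8. The pseudogene Hdac1-ps ranged from 0.214 to 13 RPM within MuSCs alone, and it shares sequence with Hdac1, so that the division of reads between them is uncertain. Hdac10 was at 25.1, 24.8 and 21.4 RPM and then at 14.4, 11.3 and 10 (-0.95 ± 0.27, adjusted p = 0.0189, lost without MuSC library 05 at 0.0621 or myoblast library 05 at 0.0661 or 06 at 0.0782). Hdac6, a tubulin deacetylase, and Hdac11 were not called, and Hdac6 was called without MuSC library 04 (1.74, adjusted p = 0.00621, against 1.13 and 0.0988 with it).

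Of 7 sirtuins, 2 fell. Sirt2 was at 431, 352 and 310 RPM in MuSCs and at 150, 88.6 and 86.3 in myoblasts (-1.78 ± 0.25, adjusted p = 0.000633). Sirt7, a nucleolar H3K18 deacetylase, was at 51.6, 46.0 and 37.7 RPM and then at 16.7, 18.4 and 17.7 (-1.30 ± 0.23, adjusted p = 0.00229). Both kept their call in all 13 alternative fits. Sirt1, an H4K16 deacetylase studied in MuSC activation, was at 9.7, 10.4 and 8.6 RPM against 5.57, 7.79 and 9.47 (95% interval of -1.02 to 0.39). Sirt6, an H3K9 and H3K56 deacetylase, was at 2.72, 3.72 and 3.87 RPM against 5.28, 8.51 and 8.13, just outside the threshold (0.89 ± 0.33, adjusted p = 0.0536), and it was called without myoblast library 04 (1.08, adjusted p = 0.0266), with each library scaled to its own total (0.0368), with the filter applied to every library (0.0481) and without the trend and robust options (0.0239).

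Of 14 lysine demethylases, 3 fell and 2 rose. Kdm6b (JMJD3), which removes methyl groups from H3K27, was at 42.9, 26.6 and 31.1 RPM in MuSCs and at 6.84, 12.5 and 17.2 in myoblasts (-1.44 ± 0.36, adjusted p = 0.0115), in all 13 alternative fits. The H3K9 demethylases Kdm3a and Kdm3b fell by 0.87 ± 0.24 and 0.93 ± 0.25 on the log2 scale (adjusted p = 0.0178 and 0.0147). For Kdm3a the call was lost without MuSC library 04 (0.0572) or 05 (0.0597), and for Kdm3b without MuSC library 06 (0.0574). Kdm2b, an H3K36 demethylase that brings a Polycomb complex to CpG islands, rose from 18.5, 15.8 and 9.98 RPM to 42.3, 40.4 and 28.2 (1.29 ± 0.31, adjusted p = 0.00907). Kdm8, a JmjC protein with hydroxylase activity, rose from 2.82, 4.31 and 1.92 RPM to 8.96, 7.3 and 6.3 (1.12 ± 0.34, adjusted p = 0.0284). Its call was lost without MuSC library 04 (0.0582) or 06 (0.0955) and without myoblast library 04 (0.0561), 05 (0.0797) or 06 (0.0599). Kdm1a (LSD1), the flavin-dependent H3K4 demethylase of the CoREST complex, was at 72.9, 48.0 and 40.3 RPM against 33.5, 32.5 and 40.6, with overlapping groups (-0.55 ± 0.26, adjusted p = 0.125). Kdm7a lay just outside the threshold (-1.30 ± 0.48, adjusted p = 0.0544) and was called without myoblast library 06 (-1.65, adjusted p = 0.0281) and with the filter applied to every library (0.046). Kdm4a was called only without myoblast library 04 (1.11, adjusted p = 0.0134, against 0.33 with all libraries).

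Several of these genes have a close relative with the same reaction, and the per-kilobase ratios of relatives give their balance in each library. These pairs were picked after their values were seen, so the ratios are a description without a test. Kat2a over Kat2b was 0.883, 1.46 and 1.2 in the MuSC libraries and 37.8, 31.6 and 14.9 in the myoblast libraries. Kmt5c over Kmt5b was 0.233, 0.338 and 0.262 and then 2.55, 0.899 and 1.36. Ezh2 over Ezh1 was 1.0, 1.14 and 1.84 and then 4.22, 3.35 and 2.81. Dnmt1 over Dnmt3a ran from 0.804 to 1.18 in MuSCs and from 1.96 to 8.01 in myoblasts. The ranges of these 4 ratios were separate between the groups. Tet2 over Tet3 was also separate, at 2.94, 3.13 and 3.7 and then 1.8, 0.643 and 0.458. Tet2 over Tet1 overlapped, at 9.18, 5.43 and 6.63 and then 40.5, 7.76 and 5.16. Within the class IIa deacetylases, Hdac4 made up 86.8% to 91.5% of the summed RPM per kb in MuSCs and 29.6% to 34.7% in myoblasts. Hdac5 made up 8.19% to 11.6% and then 46.9% to 58.5%, while the class sum was 22.2 to 35.7 RPM per kb in MuSCs and 14.5 to 16.2 in myoblasts.

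**Figure D3:**
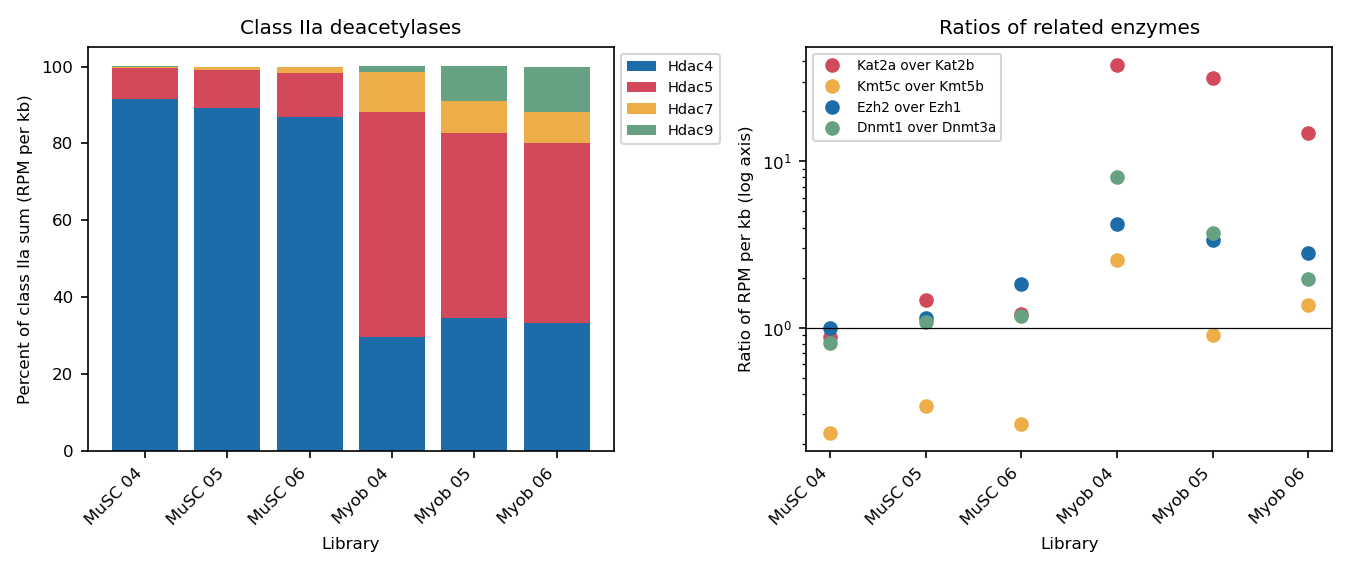
Left, the share of Hdac4, Hdac5, Hdac7 and Hdac9 in their summed RPM per kb (y axis, percent) in each of the 6 libraries (x axis). Right, ratios of related enzymes in RPM per kb (logarithmic y axis) in the same libraries. Hdac4 falls from at least 86.8% of the class to at most 34.7%, and Kat2a over Kat2b goes from at most 1.46 to at least 14.9.

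Promoter sequences from RefSeq (GRCm38.p6, 250 bases before and 50 after each start) were at hand for 52 of the 66 genes, with 76 starts. Then 5 short motifs were searched on both strands. An E2F-type motif (TTTCCCGC, TTTGGCGC, TTTCGCGC or TTTGCCGC), the class of site bound by the E2F factors of the cell cycle, was found in 5 of the 76 promoters (6.58%, beside 2.26% of all 32851 promoters). The genes were Dnmt1, Ezh2, Kat2a, Kmt5c and Sirt4. The GC box GGGCGG was found in 63.2% (35.7% of all), CCAAT in 39.5% (37.4%), the E-box CAGCTG in 19.7% (16.3%) and the CHR motif TTTGAA in 14.5% (17.9%). The E2F letters can overlap a GC box. The enzymes' promoters held a median of 22.5 CG dinucleotides in 300 bases, beside 7 in all promoters. A match is a description of letters and not a bound site.

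The 250 bases before the start are shown for the Kat2 and Kmt5 pairs, in which 1 relative rose and the other fell in myoblasts, at the first start listed for each. Capitals mark matches to any of the motifs. Kat2a lies on the minus strand at chr11:100712468-100712717, Kat2b on the plus strand at chr17:53566721-53566970, Kmt5b on the plus strand at chr19:3767171-3767420 and Kmt5c on the plus strand at chr7:4739877-4740126, all of GRCm38.p6.
Kat2a: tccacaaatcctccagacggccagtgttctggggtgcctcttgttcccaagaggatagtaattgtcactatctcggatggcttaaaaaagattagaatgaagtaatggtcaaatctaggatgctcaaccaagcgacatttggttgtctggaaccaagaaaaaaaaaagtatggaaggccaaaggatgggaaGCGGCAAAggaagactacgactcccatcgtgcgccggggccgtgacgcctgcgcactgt
Kat2b: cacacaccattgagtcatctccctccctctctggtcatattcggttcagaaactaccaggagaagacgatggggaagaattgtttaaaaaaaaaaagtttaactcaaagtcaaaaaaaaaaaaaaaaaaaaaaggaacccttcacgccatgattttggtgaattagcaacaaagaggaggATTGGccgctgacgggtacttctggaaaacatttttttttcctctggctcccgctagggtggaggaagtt
Kmt5b: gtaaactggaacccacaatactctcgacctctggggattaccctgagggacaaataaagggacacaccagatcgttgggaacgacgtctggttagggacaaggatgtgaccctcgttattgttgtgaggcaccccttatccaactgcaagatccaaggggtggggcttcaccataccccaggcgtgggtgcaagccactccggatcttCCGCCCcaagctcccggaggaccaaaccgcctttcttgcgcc
Kmt5c: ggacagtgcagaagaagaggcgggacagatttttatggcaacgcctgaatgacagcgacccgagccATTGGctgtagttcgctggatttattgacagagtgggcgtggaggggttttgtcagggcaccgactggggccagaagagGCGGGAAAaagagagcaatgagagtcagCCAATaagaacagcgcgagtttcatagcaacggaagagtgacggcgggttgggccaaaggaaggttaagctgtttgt
The capitals are an E2F motif beginning 59 bases before the start in Kat2a, a CCAAT motif at 70 bases in Kat2b, a GC box at 42 bases in Kmt5b, and an E2F motif at 105 bases between CCAAT motifs at 184 and 77 bases in Kmt5c. The 4 genes were picked after their values were seen, so the place of the E2F matches among them carries no weight. Of the 8 enzymes called higher that have a promoter here, 3 hold an E2F match (Dnmt1, Kat2a and Kmt5c) and Hdac5, Hdac7, Hdac9, Kdm2b and Kdm8 do not. A match was found in 0 of 13 called lower and in 2 of 31 that were not called (Ezh2 and Sirt4).

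Genes outside the named families that work with these enzymes were counted from lists. Over all 15345 genes tested, 22.2% were called higher and 20.6% lower, and no test was made of the lists. Of 8 arginine methyltransferases tested, 5 rose and none fell, led by Prmt1 (56.1, 58.6 and 46.9 RPM against 396, 259 and 226) and by the H3R2 enzyme Prmt6 (1.70 ± 0.25, adjusted p = 0.000702). Of 9 PRC2 partners 3 rose and 5 fell: the histone chaperone Rbbp4 rose by 1.54 ± 0.18 (adjusted p = 0.0002), whereas the core subunit Suz12 fell by 0.89 ± 0.28 (adjusted p = 0.0309) and Eed was not called. Of 8 partners of the H3K4 methyltransferases 4 rose and 1 fell, and Wdr5, shared by all these complexes, rose by 1.18 ± 0.21 (adjusted p = 0.00206) while the catalytic subunits Kmt2b, Kmt2c and Setd1b fell. Of 17 other lysine methyltransferases 4 rose and 3 fell, among them the muscle gene Smyd1, listed at 0 RPM in all MuSC libraries and at 56.6, 62.1 and 99.0 in myoblasts. Of 5 other acetyltransferases 3 fell, namely Crebbp, Ncoa1 and Ncoa3. Genes listed as other demethylases gave 1 higher and 3 lower of 7, deacetylase complex partners 3 and 4 of 19, acetyltransferase complex partners 1 and 6 of 22, DNA methylation cofactors 1 and 1 of 6, and genes of cofactor supply 0 and 3 of 9. Jarid2 (-1.59 ± 0.29, adjusted p = 0.00242) is counted both among the genes listed as other demethylases and among the PRC2 partners. Uhrf1, which brings Dnmt1 to newly replicated DNA, went from 7.33, 21.4 and 29.3 RPM to 144, 95.5 and 59.6 (2.41 ± 0.49, adjusted p = 0.00433).

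Many of these enzymes have long transcripts, with a median canonical length of 4.77 kb beside 3.36 kb over all genes tested. Of the 25 enzymes of at least 6 kb, 11 fell and 2 rose, beside 21.8% lower and 20.6% higher among all genes of that length. In myoblast library 04 the median deviation of these long enzymes from their group mean was -0.67 on the log2 scale, beside -0.16 for all genes of that length, and in myoblast libraries 05 and 06 it was 0.29 and 0.28. Library 04 was the lowest of the 3 myoblast libraries for 39 of the 66 enzymes (59.1%, beside 41.8% of all genes). Without it 26 enzymes were called, beside 44.3% of all genes, with 8 of the enzymes higher and 18 lower. MuSC library 04 stood apart on the other side. It was the highest of the 3 MuSC libraries for 38 of the 66 enzymes (57.6%, beside 39.9% of all genes), and its long enzymes deviated by 0.36, beside 0.09 for all genes of that length. Without it 21 enzymes were called, beside 37.8% of all genes, with 8 of the enzymes higher and 13 lower.

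The second comparison asked what deletion of Nedd4L does to the MuSC transcriptome. Nedd4l itself was at 70.2, 96.4 and 66.7 RPM in the Nedd4L WT libraries and at 30.2, 36.3 and 22.5 in the Nedd4L-cKO libraries, with no overlap (-1.37 ± 0.28, adjusted p = 0.0467). None of the 65 enzymes was called by limma, beside 0.784% of all 15304 genes tested, and the lowest adjusted p among them was 0.128. At an unadjusted p under 0.05 there were 11 enzymes, beside 14.6% of all genes, 7 of them lower, beside 7.13% of all genes. The 11 were 5 writers and 6 erasers. The groups of 16 enzymes did not overlap, beside 19.3% of all genes. For 29 of the 65 the 95% interval of the log2 fold change lay within -1 and 1, and for the other 36 a change of 2-fold in at least 1 direction lay inside the interval, so that such a change was not excluded by these libraries. Lower values were more frequent than higher ones, in 47 of 65 enzymes (72.3%) beside 49.9% of all genes. The enzymes had a median length of 4.79 kb, beside 3.31 kb over all genes tested. Over all genes the median log2 fold change was 0.14 below 2 kb and -0.1 from 6 kb. For the enzymes of these lengths it was -0.12 and -0.13. The part of length in these directions was not tested.

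**Figure D4:**
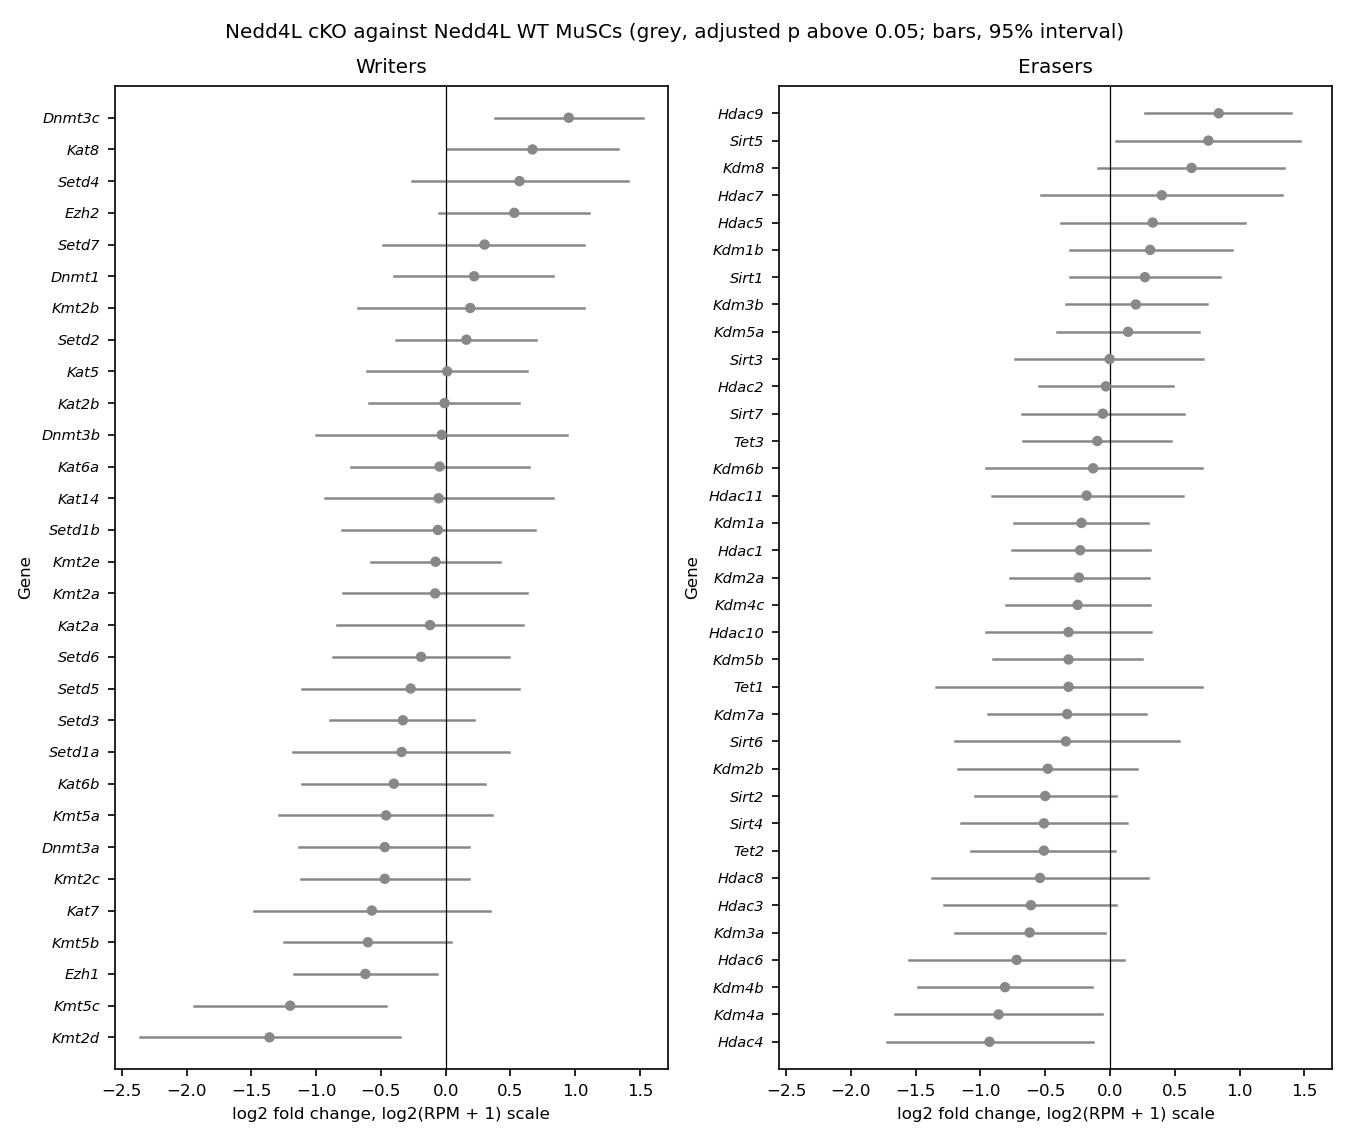
Log2 fold change of each enzyme in Nedd4L_cKO_MuSC minus Nedd4L_WT_MuSC libraries, on the log2(RPM + 1) scale (x axis), with writers and erasers in separate panels and genes on the y axis. Points are estimates from 3 libraries a group and bars are 95% intervals. All points are grey because no adjusted p reached 0.05, and they run from -1.36 (Kmt2d) to 0.95 (Dnmt3c).

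Cell markers in these libraries were compared as well. The summed muscle stem cell markers were 3810 to 5220 RPM in WT and 4040 to 4900 in cKO, with 1 of 9 called lower. That gene was Chrdl2, at 287, 317 and 205 RPM against 36.3, 52.4 and 56.4 (-2.46 ± 0.27, adjusted p = 0.00296). Lower values in cKO were found for 7 of the 9 and higher values for 2. The higher ones include Chodl, the largest part of the sum (1780, 2340 and 1950 RPM against 2320, 3040 and 1980). Sums of 6 myofiber markers (157 to 340 against 382 to 469 RPM) and 4 mural markers (1130 to 1860 against 2130 to 3120 RPM) were higher in cKO without overlap, although 0 of these 10 genes was called. Proliferation sums overlapped, at 326 to 698 and 662 to 786 RPM, with Ccnb1 alone called. The overlap came through WT library 01 at 698 RPM, beside 326 and 356 in WT libraries 02 and 03. Of the 15 proliferation genes 12 had higher values in cKO and 3 lower, with a median log2 fold change of 0.78. By limma 7 of them had an unadjusted p under 0.05, all higher, beside 14.6% of all genes. Sums of fibro-adipogenic (670 to 1510 against 550 to 2540 RPM), differentiating myoblast (136 to 721 against 290 to 706) and tenocyte markers (70.1 to 521 against 138 to 662) overlapped and varied within groups, and endothelial, immune and Schwann sums were at most 103 RPM. The part of these differences in the enzymes' values was not tested.

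Among the writers, Kmt2d, the main enhancer H3K4 monomethyltransferase, at chr15:98729550-98769085 of GRCm39, had the largest difference. It was at 112, 118 and 82.9 RPM in WT libraries and at 17.8, 38.2 and 89.7 in cKO libraries (-1.36 ± 0.46, adjusted p = 0.21). The cKO libraries 01 and 02 lay below every WT library and library 03 within them, and without library 03 Kmt2d was called (-1.94, adjusted p = 0.0365), the only enzyme called when any 1 library was left out. Its transcript is 19.8 kb long. In cKO library 03 the long enzymes deviated by 0.25 from their group mean, against -0.18 and -0.14 in libraries 01 and 02. All genes of at least 6 kb deviated by 0.12 in library 03, by -0.12 in library 01 and by almost nothing in library 02. Kmt5c was at 7.08, 5.83 and 5.13 RPM in WT and at 1.85, 1.93 and 2.35 in cKO, with no overlap (-1.20 ± 0.34, adjusted p = 0.136). Its direction was opposite to that in myoblasts. Dnmt3c had the smallest p, at 0.414, 0.135 and 0 RPM in WT and 1.25, 0.78 and 1.9 in cKO (0.95 ± 0.26, adjusted p = 0.128), at very low levels, and it shares sequence with Dnmt3b, so its value is uncertain.

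For the PRC2 enzymes, Ezh1 was at 62.5, 49.5 and 59.6 RPM in WT and at 32.1, 35.5 and 43.3 in cKO (-0.62 ± 0.25, adjusted p = 0.29), and Ezh2 was at 35.2, 28.7 and 22.4 RPM and 37.2, 42.2 and 45 (0.53 ± 0.27, adjusted p = 0.388). Neither pair of groups overlapped and neither passed the test. The ratio of Ezh2 to Ezh1 per kb was 0.774, 0.797 and 0.515 in WT and 1.59, 1.63 and 1.43 in cKO, a description chosen after the values were seen. Kat2a over Kat2b (0.401 to 0.806 against 0.304 to 0.905) and Dnmt1 over Dnmt3a (0.486 to 0.933 against 0.859 to 1.71) overlapped. So did Tet2 over Tet3 and Tet2 over Tet1, while Kmt5c over Kmt5b was 0.195 to 0.436 in WT and 0.117 to 0.18 in cKO. Among the other writers, Kat8 was at 19.3, 13.2 and 12.2 RPM against 30.1, 21.0 and 21.4 (0.67 ± 0.30, adjusted p = 0.336). Kmt5b was at 42.8, 78.7 and 47.1 RPM against 29.6, 43.4 and 34.4 (-0.60 ± 0.30, adjusted p = 0.379), and Kmt5a at 12.8, 12.2 and 12.2 against 5.77, 6.88 and 16.1 (-0.46 ± 0.38, adjusted p = 0.611). Groups of both overlapped. Dnmt3a was at 43.2, 34.9 and 25.9 RPM against 18.2, 25.9 and 29.9 (-0.47 ± 0.30, adjusted p = 0.498), and Dnmt1 at 12.8, 16.1 and 14.7 against 18.9, 16.5 and 15.6 (0.22 ± 0.28, adjusted p = 0.771). Dnmt3b, Kmt2a and Setd7 overlapped widely, with log2 fold changes of -0.03 ± 0.44, -0.081 ± 0.33 and 0.30 ± 0.36. Kat2b, which differed most in myoblasts, was at 40.2, 41.6 and 51.5 RPM in WT and 37.9, 56.9 and 39.2 in cKO, with an interval of -0.59 to 0.57.

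Among the erasers, Hdac4 was at 129, 201 and 85.0 RPM in WT and at 54.3, 52.6 and 110 in cKO (-0.93 ± 0.36, adjusted p = 0.277), with library 03 of the cKO again inside the WT range. Hdac9 was at 0.281, 0.227 and 0.0791 RPM against 0.731, 1.96 and 0.884 (0.84 ± 0.26, adjusted p = 0.175), separate but at very low levels. Kdm4b, an H3K9 demethylase, was at 13.2, 13.9 and 19.8 RPM in WT and 7.65, 9.29 and 8.23 in cKO (-0.81 ± 0.31, adjusted p = 0.265). Kdm3a was at 88.8, 67.0 and 70.5 RPM in WT and at 37.0, 56.9 and 53.6 in cKO (-0.62 ± 0.26, adjusted p = 0.312). The last 2 did not overlap between genotypes. Kdm4a (-0.86 ± 0.37, adjusted p = 0.313) and the mitochondrial Sirt5 (0.76 ± 0.33, adjusted p = 0.314) complete the erasers with an unadjusted p under 0.05. Tet2 was at 163, 186 and 137 RPM against 135, 89.6 and 118 (-0.51 ± 0.25, adjusted p = 0.384), and Sirt2 at 261, 201 and 216 RPM against 129, 162 and 191 (-0.50 ± 0.25, adjusted p = 0.388). Tet1 ranged from 15.6 to 49.9 RPM in WT and 11.9 to 38 in cKO, and Tet3 from 22.4 to 27.6 and 20.6 to 25.6, with log2 fold changes of -0.32 ± 0.47 and -0.098 ± 0.26. Kdm1a was at 45.7, 47.9 and 45.9 RPM against 37.6, 40.1 and 41.6, separate but by little (-0.22 ± 0.24, adjusted p = 0.71). Kdm6b was at 74.5, 70.3 and 39.1 RPM against 42.2, 37.2 and 99.1 (-0.13 ± 0.38), and Sirt1 at 19.1, 23.8 and 28.5 against 28.3, 29.7 and 27.6 (0.27 ± 0.27), with overlap in both. Among the class I deacetylases the 95% intervals were -0.76 to 0.31 for Hdac1 and -0.55 to 0.49 for Hdac2.

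By limma, 0 genes of the 10 partner lists above were called in this comparison. Of 108 entries tested, with Jarid2 counted in both of its lists, 11 had an unadjusted p under 0.05 (10.2%, beside 14.6% of all genes). The lowest adjusted p in them was 0.0579, among the arginine methyltransferases, of which 6 of 8 had lower values in cKO.

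The 2 comparisons use different mice and share no library, and their values can be set side by side. Of the 65 enzymes 39 (60.0%) had the same sign in both, beside 48.0% of the 14343 genes tested in both. Of the 28 called in myoblasts 21 (75.0%) had the same sign in cKO MuSCs, beside 48.2% of all genes called in myoblasts. Among these, 16 of the 20 that fell in myoblasts had lower values in cKO (50.1% of all such genes), and 5 of the 8 that rose had higher values (46.0% of all such genes). Hdac9, which passed the filter of the first comparison through the myoblast libraries alone, was higher in both. Hdac4, Tet2, Sirt2, Ezh1 and Kmt5b were lower in both, while Kmt5c and Kdm2b were higher in myoblasts and lower in cKO. These are counts over genes whose values are not independent, with no enzyme called by genotype, and no test was made of them.

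**Figure D5:**
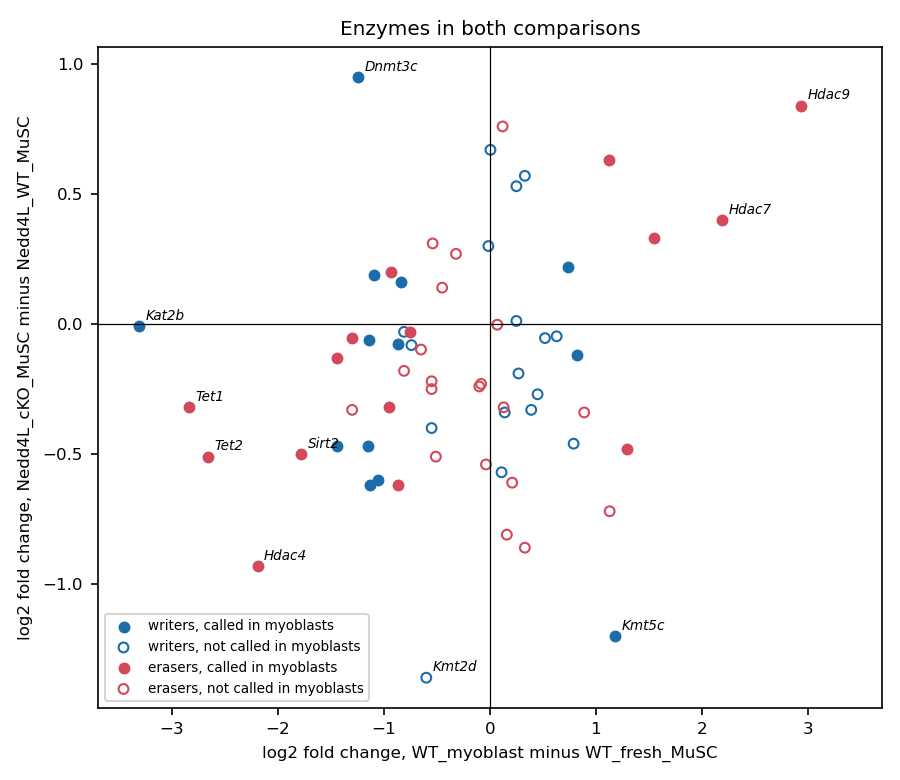
Log2 fold change in WT_myoblast minus WT_fresh_MuSC (x axis) against that in Nedd4L_cKO_MuSC minus Nedd4L_WT_MuSC (y axis), both on the log2(RPM + 1) scale, for the 65 enzymes in both tables. Writers are blue, erasers are red, and filled points were called in myoblasts. Of the 28 filled points 21 lie in the lower left or upper right quadrant, and Kmt5c (1.18 and -1.20) lies in the lower right.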

How the data were processed

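RNA of 12 mouse libraries was analysed in 2 tables. Per the labels and the study's methods, the authors quantified reads with Kallisto 0.46.1 against the GENCODE basic annotation, imported them by gene and deposited counts normalised by DESeq2 in each table separately, which is a signal and not raw counts. These values are not whole numbers, so reads could not be recovered, and 18 columns of the genotype table were not used (6 copies of the normalised counts and 12 of RPM), nor were the deposited fold changes and p-values, which hold the authors' own DESeq2 comparisons.

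Normalised counts were divided by the mean total of the 6 libraries of a table and multiplied to RPM. Genes with at least 10 normalised counts in 3 libraries were tested with limma 3.58.1 (R 4.3.3) on log2(RPM + 1), with trend and robust options, within each table, and p-values were adjusted by the Benjamini-Hochberg method over all genes tested. Intervals are 95%. The fit was tested on simulated data. Lengths (Ensembl canonical transcript) and coordinates are of the GENCODE annotation of GRCm39, a later release than that of the files, and promoters are of RefSeq GRCm38.p6. Replicates are separate mice. The submitters' design text states that myoblasts were grown from the same mice as the fresh MuSCs, and libraries whose descriptions share a number were taken as pairs. The main fit has no block. Same-numbered MuSC and myoblast libraries deviated from their group means with correlations of -0.0314, -0.00502 and 0.018. Alternatives changed the scaling, the pseudocount, the filter, the limma options, the block, the call and the libraries.

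Genes given in full were the called ones with separate groups and a log2 fold change beyond 1 in either direction, the 8 with the smallest p by genotype, and 18 enzymes named by role. The members and lists were chosen with earlier results of these data known.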

Additional observations from a re-analysis of the deposited data

How the results depend on the processing

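Of the 28 enzymes called in myoblasts, 13 were called in all of 13 alternatives that changed the fit, the filter, the scaling or the libraries. The number called was 28 with TMM factors, with each library scaled to its own total, with a pseudocount of 0.1 RPM and with at least 10 normalised counts in every library, 27 without a filter and 29 without the trend and robust options. In the same order, 42.8%, 43.0%, 42.1%, 43.5%, 39.9% and 40.8% of all genes were called. With the animal as a replicate block 25 were called (10 writers and 15 erasers), beside 39.6% of all genes. Dnmt1, Kmt2b and Setd2 were lost. Leaving out 1 library at a time gave 20 to 26 enzymes called, 7 to 11 writers and 12 to 15 erasers. The share of all genes called ran from 31.7% (without myoblast library 05) to 44.3% (without myoblast library 04), against 42.8% in the main fit. The fewest writers, 7, were called without MuSC library 04 or 06, and 8 without MuSC library 05 or myoblast library 05. Enzymes called higher fell to 4 without myoblast library 05 and to 5 without MuSC library 06 or myoblast library 06, and those called lower to 13 without MuSC library 04. A required log2 fold change of 1 or more in size with a mean of at least 5 RPM left 19 enzymes (8 writers and 11 erasers), beside 25.2% of all genes. Scaling each library to its own total moved the median log2 fold change of all genes from 0.03943 to 0.1409 and gave 9 enzymes higher and 19 lower. The log2 fold change of Setd7, -0.014, became 0.009 with TMM factors and 0.12 with own totals and was -0.2 to 0.25 over single libraries left out, positive without MuSC library 04 or myoblast library 04 or 05, and that of Tet3 was -1.14 to 0.11, positive without myoblast library 04.

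By genotype, 0 enzymes were called in every alternative except that without cKO library 03, where 1 writer, Kmt2d, was called, so that leaving out 1 library gave 0 to 1. Same-numbered libraries come from different mice here, which share only a number; with it as a replicate block, 0 enzymes and 76 genes in all were called, against 120 without it. The number of all genes called was 21 to 176 over single libraries left out, 213 with at least 10 normalised counts in every library and 50 without the trend and robust options. Enzymes with an unadjusted p under 0.05 numbered 5 without cKO library 01 and 6 without WT library 02, against 11 with all libraries (beside 14.6% of all genes). The share of all genes at that p is not given for the fits with a library left out. The sign turned over single libraries left out, with an adjusted p of at least 0.748 wherever it did, for Kdm6b (-0.56 to 0.13, positive without WT library 01 or cKO library 01 or 02), Kmt2a (-0.37 to 0.19, positive without WT or cKO library 02), Dnmt3b (-0.37 to 0.42, positive without WT library 01 or cKO library 01 or 03) and Tet1 (-0.76 to 0.14, positive without WT or cKO library 02). The causes were not tested. Groups of 3 libraries and an unknown depth limit what could be detected.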
